A study of Mus musculus with 7 samples.

Results

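The genes described here are 38 cell cycle and mitosis genes, listed by symbol, with earlier results of these data known but with no measured value in the rule. All 38 were found among the 25461 genes of the deposited expression table, and all 38 were among the 16095 genes that averaged 1 FPKM or more and entered the test. FPKM are fragments scaled to the length of the transcript and the size of the library, so levels of different genes can be set beside each other per length. For the comparison of phases, 15 genes of S phase and the steps that lead into it (origin licensing, E-type cyclins, E2f1) were counted as S-phase genes, 17 as G2/M genes, and the remaining 6, the D-type cyclins and 3 cyclin-dependent kinases, were placed in neither group.

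RNA was sequenced from whole mouse embryos of the strain B6C3F1 at embryonic day 11.5, whose tails had been removed for genotyping. The 3 KO embryos (SLMAP3-/-) lacked SLMAP3, the largest isoform of the Slmap gene, through deletion of a loxP-flanked exon by a ubiquitously driven Cre that was bred out afterwards. The other isoforms of Slmap remain in these embryos, and the 4 WT embryos carry the undeleted gene. The embryos are named by number, and the KO values are given throughout in the order KOAC10-5, KOAC10-8 and KOAC8-6, the WT values in the order KOAC10-2, KOAC10-7, KOAC8-1 and KOAC9-1.

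A dividing cell passes from G1, in which D-type and E-type cyclins with their kinases release the E2F transcription factors, into S phase, in which licensed replication origins fire and DNA is copied. In G2 and mitosis, cyclin B with Cdk1 drives entry into division, and the Aurora, Polo and Bub kinases oversee the attachment and separation of the chromosomes. Transcripts of many of these genes rise and fall with the phase, so that in a bulk tissue their levels depend on how many cells are cycling. In whole embryos, fewer cycling cells and less RNA per cycling cell cannot be told apart. The comparison asked whether embryos without SLMAP3 differed from WT embryos in these transcripts, and whether S-phase genes differed in another way than G2/M genes.

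Promoter sequences of these genes hold known short elements of cell cycle control, and a few are shown because they separate the S-phase from the G2/M group by a measure other than expression. They are taken from the RefSeq promoter windows of the build GRCm38.p6, which run from 250 bases before to 50 bases after the start of each gene and gave a window for 31 of the 38 genes. Each sequence is printed 5′ to 3′ on the strand of the gene and ends at the base before the start. Capitals mark matches, on either strand, to the core of the cell cycle homology region (TTTGAA, which reads TTCAAA on the other strand), to the CCAAT box bound by NF-Y (ATTGG on the other strand) and to an E2F site (TTCCCGC or TTGGCGC). The first 3 belong to G2/M genes, namely the spindle motor Kif11 (chr19:37376262-37376381, plus strand), the topoisomerase Top2a (chr11:99024190-99024309, minus strand) and the proliferation marker Mki67 (chr7:135716380-135716499, minus strand).
Kif11: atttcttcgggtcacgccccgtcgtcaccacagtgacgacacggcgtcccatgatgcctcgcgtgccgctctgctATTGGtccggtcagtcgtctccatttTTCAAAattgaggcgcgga
Top2a: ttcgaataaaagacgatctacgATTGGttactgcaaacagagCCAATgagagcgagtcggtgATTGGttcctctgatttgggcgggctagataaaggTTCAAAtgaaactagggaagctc
Mki67: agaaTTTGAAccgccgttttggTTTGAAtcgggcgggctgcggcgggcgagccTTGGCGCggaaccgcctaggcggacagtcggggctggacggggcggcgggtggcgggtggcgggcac
The other 2 belong to S-phase genes, the replicative helicase subunit Mcm6 (chr1:128359706-128359825, minus strand) and the large subunit of ribonucleotide reductase, Rrm1 (chr7:102441575-102441694, plus strand).
Mcm6: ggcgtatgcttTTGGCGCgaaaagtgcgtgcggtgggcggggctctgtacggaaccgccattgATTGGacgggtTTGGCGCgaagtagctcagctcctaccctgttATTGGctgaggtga
Rrm1: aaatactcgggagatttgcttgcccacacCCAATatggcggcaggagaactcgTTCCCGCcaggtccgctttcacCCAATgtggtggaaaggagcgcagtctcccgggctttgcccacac

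The homology region core lay in the window of 10 of the 14 G2/M genes with a window (71.4%), namely Aurka, Bub1b, Ccnb2, Cdk1, Cenpa, Kif11, Mki67, Plk1, Top2a and Ttk. Among the 13 S-phase genes with a window it lay in that of 1 (7.69%), Mcm2, and it lay in 17.9% of all 32851 windows. The E2F letters showed the opposite order, in 7 of 13 S-phase genes (53.8%) and in 3 of 14 G2/M genes (21.4%), with 6.81% of all windows. The CCAAT box was frequent in both, in 13 of 14 G2/M genes (92.9%) and 8 of 13 S-phase genes (61.5%), with 37.4% of all windows. A gene with several windows was counted once, if any of them held the match, whereas the shares of all windows count each window. Read on the opposite strand, the second E2F form ends in CCAA and can overlap a CCAAT box, so these counts are not fully separate. In both groups some windows overlap annotated exons before the start. Of the 120 bases before it, all 120 do so in Pcna, E2f1 and a window of Mcm7 (stretch chr5:138171884-138172003). In Cenpa 109 do so, in Plk1 87 and in Ccnb1 84. The matches are a description of letters in a window and not of factor binding, and they were not set against the expression values.

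In these embryos all 38 genes were well expressed, from a mean of 5.02 FPKM over the 7 embryos for Cdk6 to 968 FPKM for Cdk4, with a median of 76.1 FPKM. The authors' mean normalized count per gene ran from 1743 for Ccne2 to 50269 for Mki67, so counting error was small beside the differences between embryos (about 0.035 on the log2 scale for the lowest of these counts). The relative depth of the 7 libraries ran from 0.819 to 1.23 of their average, with the KO embryos between 1.06 and 1.15. Slmap itself was listed at 16.0, 16.6 and 19.6 FPKM in KO embryos and at 22.8, 23.9, 31.2 and 29.1 FPKM in WT embryos, lower in each KO embryo than in each WT embryo, though this gene value adds up all isoforms.

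No cell cycle gene differed between KO and WT embryos after adjustment over all genes. In limma on log2(FPKM + 1), 0 of the 38 had an adjusted p under 0.05, where 0.0373% of all genes tested did. At an unadjusted p under 0.05 there were 3, Kif11, Aurka and Tpx2, all higher in KO embryos, beside 11.5% of all genes tested. That count depended on single embryos: it was 13 without KOAC10-5, 5 without KOAC8-1, and 0 without KOAC8-6, KOAC10-8, KOAC10-2 or KOAC9-1. With the numbered series of the embryo names as a block it was 1. The lowest adjusted p of the 38 was 0.395 in limma, for Kif11. The direction was less even than in the rest of the transcriptome: 35 of the 38 had a higher mean in KO embryos, beside 53.1% of all genes tested, and 3, Ccne1, Ccnd2 and Ccnd3, had a lower one. The sizes were small, with a median log2 fold change (KO minus WT) of 0.11 for the 38 genes and 0.01 for all genes tested, and 37 of the 38 had a log2 fold change no more than 0.25 from 0.

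The size of this lean depended on single embryos. KOAC10-8, a KO embryo, had the highest value of all 7 embryos in 25 of the 38 genes, where it was highest in 26.4% of all genes tested. KOAC9-1, a WT embryo, had the lowest value in 19 of the 38 and was lowest in 16.7% of all genes tested. Without KOAC10-8, the KO mean was the higher one for 30 of the 38 genes (median log2 fold change 0.05), and with both of these embryos left out, an alternative chosen after the values were seen, 25 were higher with a median of 0.03. In the other direction, the median was 0.16 without the KO embryo KOAC10-5 and 0.13 without the WT embryo KOAC8-1, each with 35 genes higher. These same embryos were the only ones with little Xist, the X-inactivation RNA (0.330 FPKM in KOAC10-8 and 0.0853 FPKM in KOAC9-1, beside 158 to 181 FPKM in the other 5), and with the Y-linked gene Ddx3y near 20 FPKM (20.2 and 19.6 FPKM). The part of this difference in the cell cycle values was not tested.

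**Figure D1:**
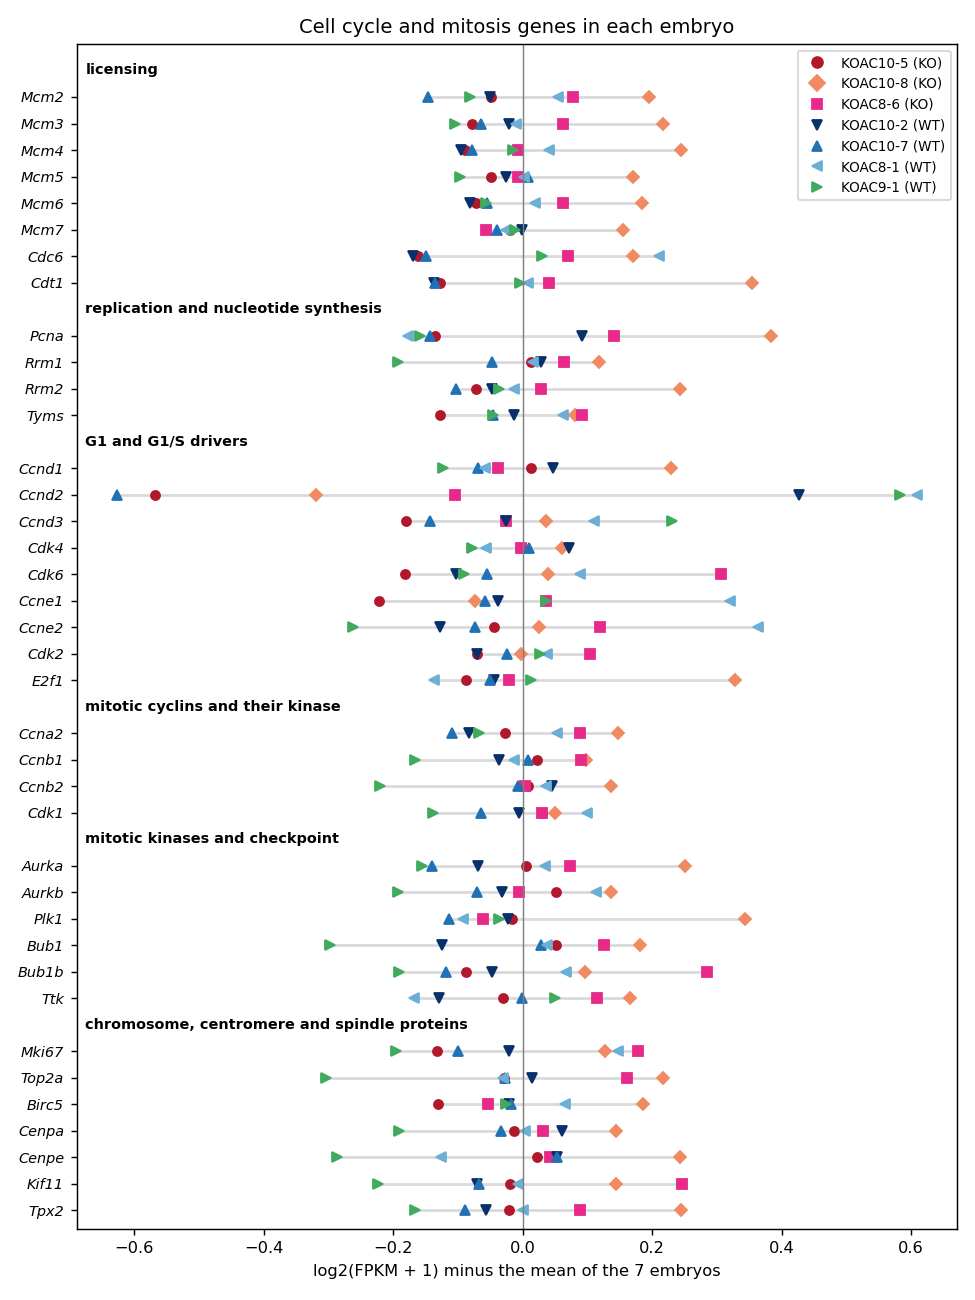
Level of each of the 38 genes in each of the 7 embryos, as log2(FPKM + 1) minus the mean of the 7 embryos (horizontal axis), with genes in rows by role. KO embryos are in red, orange and pink and WT embryos in blue and green. KOAC10-8 is the highest in 25 of 38 rows and KOAC9-1 the lowest in 19, and only Ccnd2 spreads beyond 0.4 on both sides of 0.

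Licensing of replication origins takes place before S phase, when Cdc6 and Cdt1 load the MCM helicase onto DNA. All 8 licensing genes had a higher mean in KO embryos, with log2 fold changes from 0.05 to 0.16 and a median of 0.09, and 0 had an unadjusted p under 0.05 in limma. The most abundant was Mcm7, a helicase subunit, at 133, 150 and 129 FPKM in KO embryos and 134, 131, 132 and 133 FPKM in WT embryos. The WT embryos stood close together and the KO embryos lay on both sides of them. The least abundant was Cdc6, the loader, at 14.0, 17.8 and 16.5 FPKM in KO embryos and 13.9, 14.1, 18.3 and 16.1 FPKM in WT embryos. The ranges covered each other almost wholly, with a log2 fold change of 0.05 (SE 0.12). Cdt1, its partner, had the largest difference of the 8 at 0.16 (SE 0.11). Its KO value of 39.5 FPKM in KOAC10-8 stood apart from the other 6 embryos at 27.8 to 31.6 FPKM.

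The 6 MCM subunits shared their highest embryo. This was KOAC10-8, at a mean of 0.19 above the 7-embryo mean on the log2 scale, and the other 6 embryos lay between -0.06 and 0.02. They differed in KOAC8-6, which was the second highest embryo for Mcm2, Mcm3 and Mcm6 and the lowest for Mcm7. The ratio of Mcm7 to Mcm4, another subunit of the same ring, ran from 2.10 to 2.39 over the 7 embryos. With KOAC10-8 left out, Mcm4 and Mcm7 turned to log2 fold changes of -0.01 and -0.02.

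Among the genes of DNA replication and nucleotide synthesis, Pcna, the sliding clamp of the DNA polymerases, was the most abundant and showed the largest log2 fold change of all 38 in the direction of higher KO values. It stood at 206, 296 and 250 FPKM in KO embryos and at 242, 205, 201 and 203 FPKM in WT embryos. KOAC10-8 and KOAC8-6 were above all WT embryos and KOAC10-5 was level with 3 of them, for a log2 fold change of 0.23 (SE 0.13; limma adjusted p = 0.534). It was 0.10 without KOAC10-8 and 0.36 without KOAC10-5. Part of the Pcna transcript sequence (19.1% of its stretches of 50 bases) also occurs in the pseudogene Pcna-ps2, which was listed at 39.2, 0 and 0.109 FPKM in KO embryos and at 0, 42.9, 38.4 and 33.2 FPKM in WT embryos. The 4 embryos with Pcna-ps2 at 33.2 to 42.9 FPKM were the 4 with the lowest Pcna, 201 to 206 FPKM, so how fragments were divided between the gene and its copy bears on these values. Summed over both, an alternative chosen after the values were seen, the KO embryos stood at 246, 296 and 250 FPKM and the WT embryos at 242, 248, 239 and 236 FPKM, and the difference came to 0.13 on the log2 scale.

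Rrm2, the small subunit of ribonucleotide reductase, was the least abundant of this role at 109, 136 and 117 FPKM in KO embryos and 111, 106, 113 and 112 FPKM in WT embryos. Only KOAC10-8 and KOAC8-6 lay above the WT range. Its partner Rrm1 had a log2 fold change of 0.11 (SE 0.07), and Tyms, which makes thymidylate, one of 0.03 (SE 0.07). All 4 genes of this role had a higher mean in KO embryos (median 0.11) and 0 had an unadjusted p under 0.05 in limma.

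The G1 and G1/S drivers were the most divided role, with 6 of 9 higher in KO embryos and a median log2 fold change of 0.03. Cdk4, a kinase activated by D-type cyclins, was the most abundant of all 38 genes at 966, 1009 and 965 FPKM in KO embryos and 1017, 975, 930 and 916 FPKM in WT embryos. Cdk6, which shares these cyclins, was the least abundant at 4.27, 5.15 and 6.40 FPKM in KO embryos and 4.57, 4.76, 5.36 and 4.62 FPKM in WT embryos. Both ranges overlapped between genotypes, and per length Cdk4 stood 151 to 226 times above Cdk6 in each embryo. Cdk2, the kinase of cyclin E and cyclin A, had a log2 fold change of 0.02 (SE 0.06). E2f1, the transcription factor released at S-phase entry, was listed at 19.3, 26.1 and 20.3 FPKM in KO embryos and 19.96, 19.9, 18.7 and 20.8 FPKM in WT embryos. KOAC10-8 alone stood out for E2f1, and the log2 fold change was 0.13 (SE 0.10).

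The E-type cyclins, which bring Cdk2 to the origins, pointed in opposite directions. Ccne1 had a log2 fold change of -0.15 (SE 0.11) and Ccne2 one of 0.06 (SE 0.14), neither past the test. Their ratio, Ccne1 over Ccne2, was 1.55, 1.64 and 1.66 in KO embryos and 1.88, 1.79, 1.70 and 2.20 in WT embryos. Every KO ratio was below every WT ratio, and among the 8 ratios between family members or partners examined the exact two-sided permutation test gave p = 0.0571 for this one (Benjamini-Hochberg adjusted p = 0.457 over the 8 ratios), where 0.0286 is the smallest p that 3 against 4 embryos allow. Of the Ccne2 stretches of 50 bases, 14.4% also occur in the neighbouring gene Ints8, and the library kit does not mark strand.

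The D-type cyclins, which couple growth signals to Cdk4 and Cdk6, were the only family here with a gene that varied widely. Ccnd1 stood at 105, 122 and 102 FPKM in KO embryos and 108, 99.4, 100 and 95.7 FPKM in WT embryos. Ccnd2, described because of its spread and so chosen after its values were seen, stood at 100, 119 and 139 FPKM in KO embryos and 201, 96.3, 228 and 224 FPKM in WT embryos. Of the WT embryos, 3 were above all KO embryos, whereas KOAC10-7 was the lowest of all 7.

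The log2 fold change of Ccnd2 was -0.58 (SE 0.31; limma adjusted p = 0.514), the largest in size of the 38 and the one with the largest error. The exact two-sided permutation test for Ccnd2 gave p = 0.171. Without KOAC10-7 the difference was -0.87 with an adjusted p of 0.268 in limma, and over all alternatives the adjusted p ran from 0.268 to 0.920. Ccnd2 made up 33.2%, 33.7% and 39.9% of the summed D-type cyclin FPKM in KO embryos and 48.3%, 32.7%, 51.1% and 49.95% in WT embryos. KOAC10-7 thus grouped with the KO embryos in this share, too. Ccnd3, the third of the family, had a log2 fold change of -0.10 (SE 0.10), with 96.6 to 112 FPKM in KO and 99.1 to 129 FPKM in WT embryos.

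**Figure D2:**
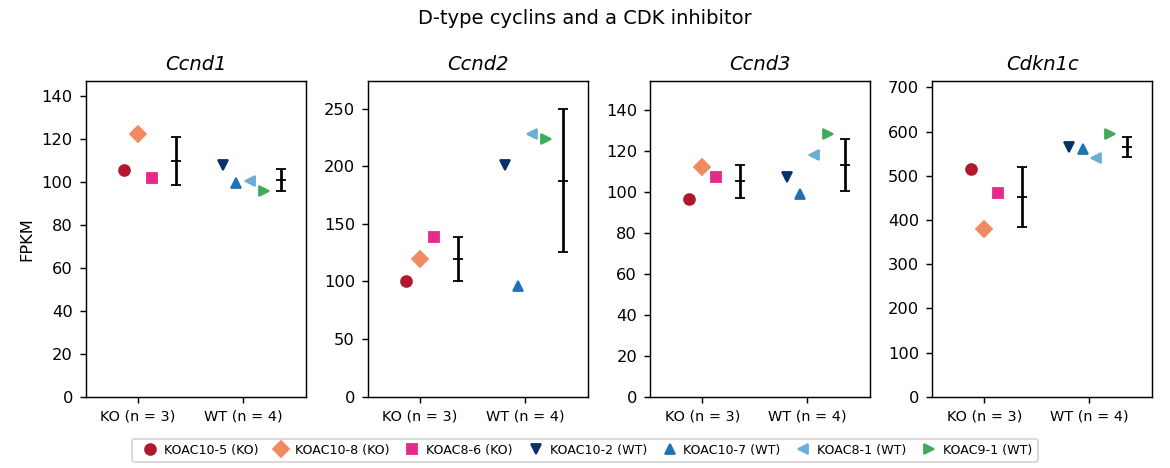
FPKM of Ccnd1, Ccnd2, Ccnd3 and the inhibitor gene Cdkn1c in 3 KO and 4 WT embryos, on axes that start at 0 and differ between panels. Points are embryos and the bars beside them show mean ± SD. For Ccnd2, 3 WT embryos stand at 201 to 228 FPKM and the WT embryo KOAC10-7 at 96.3 FPKM, below the KO embryos. For Cdkn1c the KO embryos lie below all WT embryos.

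Mitosis is entered through cyclin B and Cdk1. All 4 genes of this role had a higher mean in KO embryos (median log2 difference 0.10), 0 with an unadjusted p under 0.05 in limma. Ccnb1 (chr13:100778650-100786570) was listed at 115, 122 and 121 FPKM in KO embryos and 111, 114, 113 and 101 FPKM in WT embryos. Every KO embryo was above every WT embryo, and KOAC10-5 was above KOAC10-7 by little. The log2 fold change was 0.12 (SE 0.06; limma adjusted p = 0.464), and the exact two-sided permutation test gave p = 0.0571. Of the Ccnb1 sequence, 18.9% is shared with the pseudogene Ccnb1-ps.

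Among all 38 genes the genotypes did not overlap for 2, Ccnb1 and the checkpoint kinase Bub1, both higher in KO embryos, where the same held for 5.61% of all genes tested. Cdk1, the kinase itself, was the most abundant of the role at 177, 180 and 177 FPKM in KO embryos and 173, 166, 186 and 157 FPKM in WT embryos. Its KO embryos lay close together inside the WT range. Ccnb2 was the least abundant at 62.9, 68.7 and 62.6 FPKM in KO embryos and 64.5, 62.2, 64.1 and 53.5 FPKM in WT embryos, where KOAC9-1 was low and KOAC10-8 high. The ratio of Ccnb1 to Ccnb2 ran from 1.72 to 1.93, and Ccna2, cyclin A, had a log2 fold change of 0.12 (SE 0.06).

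Among the mitotic kinases and checkpoint genes the differences were somewhat larger, with all 6 higher in KO embryos at a median of 0.16 on the log2 scale. Aurka (chr2:172356190-172370535), the Aurora kinase of the spindle poles, was listed at 47.4, 56.4 and 49.7 FPKM in KO embryos and 45.0, 42.8, 48.4 and 42.3 FPKM in WT embryos. KOAC8-1 was the only WT embryo within the KO range. The log2 fold change of Aurka was 0.19 (SE 0.08; limma adjusted p = 0.415, unadjusted p = 0.0384). Without KOAC10-8 and KOAC9-1 it was 0.10. The exact two-sided permutation test gave p = 0.0857 for Aurka.

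Bub1 (chr2:127801122-127831865), a kinase of the spindle checkpoint, was listed at 38.8, 42.6 and 40.9 FPKM in KO embryos and 34.3, 38.2, 38.5 and 30.3 FPKM in WT embryos. KOAC10-5 exceeded the highest WT embryo by less than the WT embryos differed among themselves. The difference was 0.21 on the log2 scale (SE 0.09; limma adjusted p = 0.441), and it was 0.11 with KOAC10-8 and KOAC9-1 left out. The exact two-sided permutation test gave p = 0.114 for Bub1. Its relative Bub1b, which restrains the anaphase-promoting complex, had a log2 fold change of 0.17 (SE 0.10).

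Aurkb, the Aurora kinase of the centromeres, was the most abundant of these kinases at 68.3, 72.5 and 65.6 FPKM in KO embryos and 64.4, 62.7, 71.3 and 57.5 FPKM in WT embryos. Ttk, the kinase that starts checkpoint signalling, was the least abundant at 22.0, 25.4 and 24.5 FPKM in KO embryos and 20.5, 22.5, 19.9 and 23.3 FPKM in WT embryos. The genotypes overlapped for both, with log2 fold changes of 0.11 (SE 0.08) for Aurkb and 0.15 (SE 0.08) for Ttk. Plk1, the Polo kinase, had a log2 fold change of 0.16 (SE 0.10) and stood at 66.0 FPKM in KOAC10-8 beside 47.8 to 51.3 FPKM in the other 6 embryos.

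The 7 chromosome, centromere and spindle genes had the largest median of the 6 roles, a log2 fold change of 0.18, with all 7 means higher in KO embryos. Kif11 (chr19:37376403-37421859), the kinesin that pushes the spindle poles apart, was listed at 43.7, 49.0 and 52.7 FPKM in KO embryos and 42.1, 42.2, 44.1 and 37.8 FPKM in WT embryos. KOAC10-5 and KOAC8-1 overlapped, and the other embryos were separated by genotype. The log2 fold change was 0.22 (SE 0.08; limma adjusted p = 0.395, unadjusted p = 0.0295), and the exact two-sided permutation test gave p = 0.0571. Without KOAC10-8 and KOAC9-1 it was 0.16.

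Tpx2 (chr2:152847964-152895321), which activates Aurora A on spindle microtubules, was listed at 66.6, 80.3 and 72.0 FPKM in KO embryos and 64.9, 63.5, 67.6 and 60.1 FPKM in WT embryos. Here, too, KOAC10-5 was the only KO embryo within the WT range. The log2 fold change was 0.18 (SE 0.07; limma adjusted p = 0.421, unadjusted p = 0.0412) and fell to 0.08 when KOAC10-8 and KOAC9-1 were left out. The exact two-sided permutation test gave p = 0.0857 for Tpx2.

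Top2a, which untangles sister chromatids, was the most abundant of the role at 239, 283 and 272 FPKM in KO embryos and 246, 239, 238 and 197 FPKM in WT embryos. Cenpe, the kinesin of the kinetochore, was the least abundant at 30.1, 35.2 and 30.5 FPKM in KO embryos and 30.7, 30.8, 27.0 and 24.1 FPKM in WT embryos. KOAC9-1 was the lowest embryo for both. Mki67, which coats mitotic chromosomes and serves as the usual marker of cycling cells, was listed at 67.8, 81.3 and 84.3 FPKM in KO embryos and 73.3, 69.3, 82.5 and 64.8 FPKM in WT embryos. The Mki67 ranges overlapped nearly in full, with a log2 fold change of 0.10 (SE 0.10; limma adjusted p = 0.732). Cenpa, the centromeric histone, had a log2 fold change of 0.09 (SE 0.07). Birc5, survivin, had one of 0.00 (SE 0.08), on the KO mean of 119 FPKM and the WT mean of 118 FPKM.

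**Figure D3:**
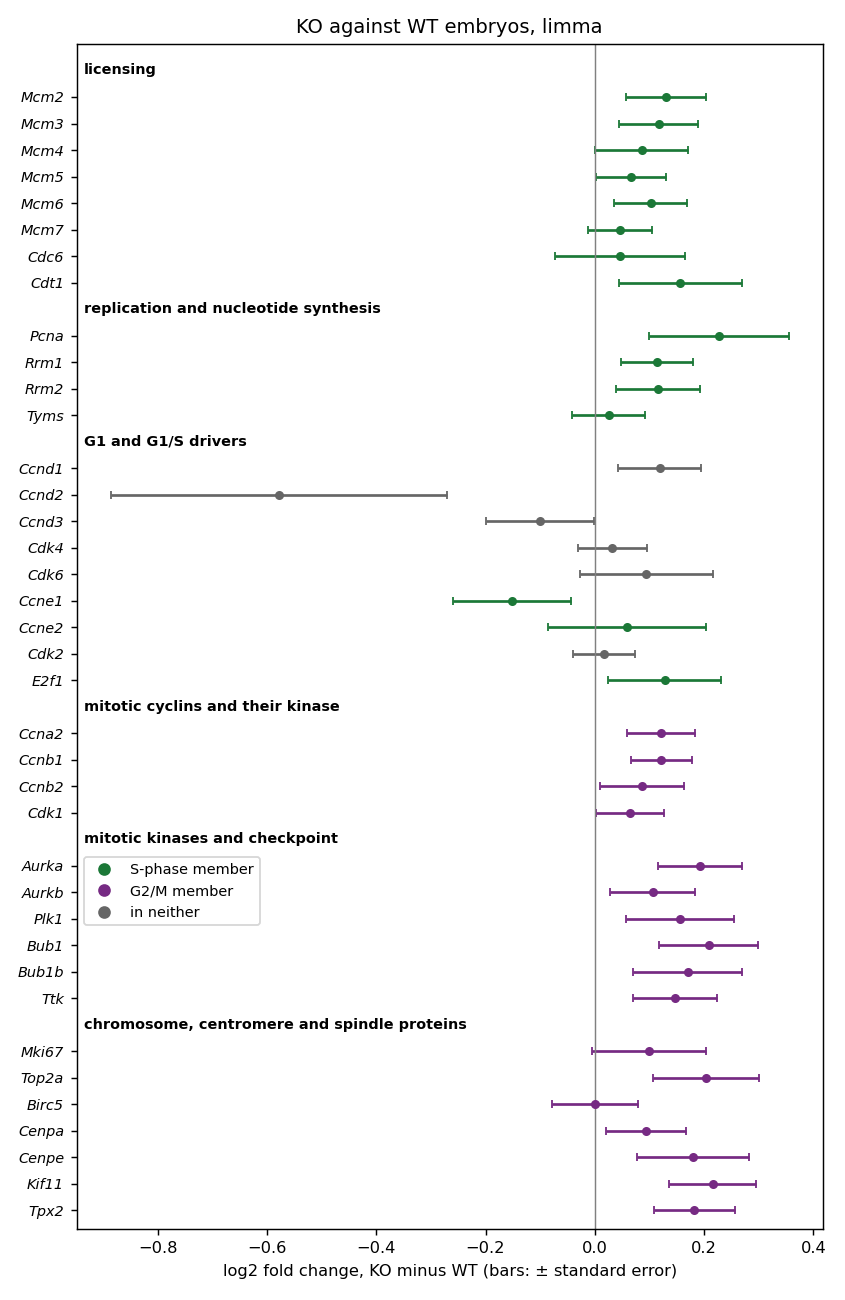
Log2 fold change, KO minus WT, of each of the 38 genes (points) with its standard error from limma (bars), 3 KO and 4 WT embryos. S-phase genes are green, G2/M genes purple and the 6 others grey. All genes but Ccnd2 lie within 0.25 of 0, and Ccne1, Ccnd2 and Ccnd3 lie below 0.

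Side by side, the S-phase and G2/M genes both had mostly higher means in KO embryos. Among the 15 S-phase genes the median log2 fold change was 0.10, with 14 higher in KO embryos, a range from -0.15 to 0.23 and 0 at an unadjusted p under 0.05 in limma. The 17 G2/M genes had a median of 0.15, with 17 higher, a range from 0.00 to 0.22 and 3 at an unadjusted p under 0.05. The difference of the medians was -0.04. The pooled SD between embryos of the difference between both lists was 0.053 on the log2 scale. That SD describes single embryos and is not the error of a difference between genotypes, and the difference of the medians was not tested. Without KOAC10-8 the medians were 0.02 for the S-phase and 0.11 for the G2/M genes, and without KOAC10-8 and KOAC9-1 they were 0.02 and 0.07. Without KOAC10-5 they were larger, 0.15 and 0.20. Restricted to 10 S-phase and 13 G2/M genes that are also in published single-cell phase lists, the medians were 0.09 and 0.15.

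Within each embryo the lists moved together. The mean deviation of the S-phase genes from the 7-embryo mean was -0.09, 0.19 and 0.05 in KO embryos and -0.05, -0.08, 0.05 and -0.07 in WT embryos on the log2 scale. For the G2/M genes it was -0.02, 0.17 and 0.08 in KO embryos and -0.03, -0.05, 0.01 and -0.17 in WT embryos. KOAC10-8 was the highest embryo in both lists, whereas KOAC9-1 had the lowest value in 13 of 17 G2/M genes and in 4 of 15 S-phase genes. This contrast did not extend to a longer S-phase list described further on, where KOAC9-1 was lowest in 16 of 33 genes. The S-phase minus the G2/M deviation was -0.07, 0.02 and -0.04 in KO embryos and -0.02, -0.03, 0.04 and 0.10 in WT embryos, with overlapping genotypes.

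**Figure D4:**
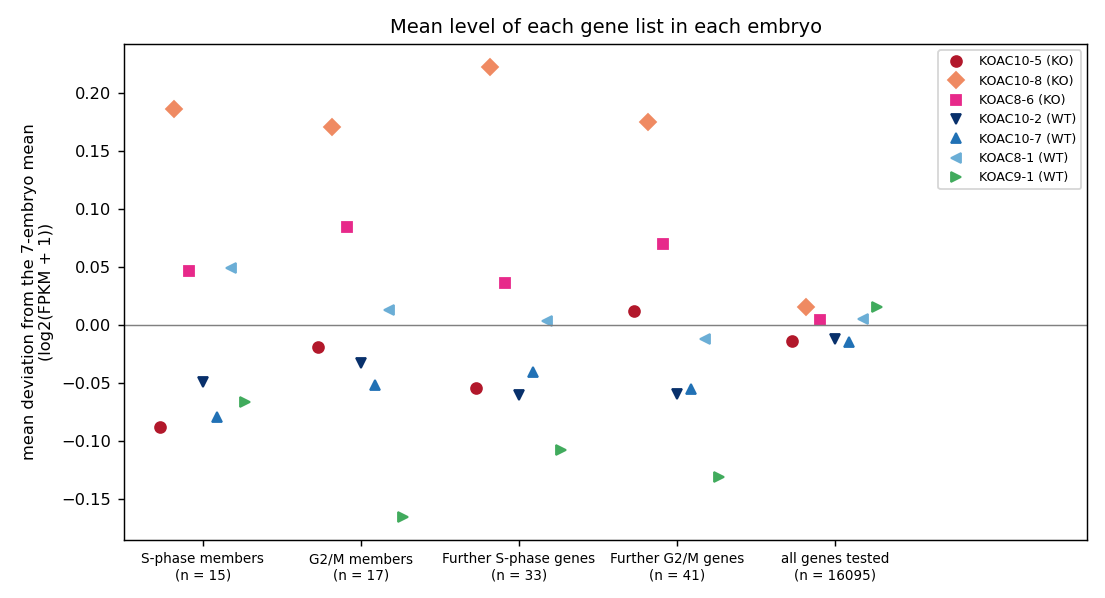
Mean deviation from the 7-embryo mean on the log2(FPKM + 1) scale (vertical axis) of each gene list in each embryo (points, 3 KO and 4 WT). KOAC10-8 is the highest embryo in the 4 cell cycle lists, at 0.17 to 0.22, and KOAC9-1 is the lowest in 3 of them. All genes tested stay within 0.02 of 0 in every embryo.

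The embryo names fall into 3 numbered series, and what these mark is not given in the sources used here. Within KOAC10 (2 KO and 2 WT embryos), the median log2 difference was 0.12 for S-phase and 0.10 for G2/M genes. In this series 35 of 38 genes were higher in KO embryos, beside 54.2% of all genes tested. KOAC10-8 is part of it: the mean S-phase deviation was 0.19 in KOAC10-8 and -0.09 in KOAC10-5. The WT embryos KOAC10-2 and KOAC10-7 were at -0.05 and -0.08, both above KOAC10-5. Within KOAC8 (1 KO and 1 WT embryo), the median log2 difference was 0.03 for S-phase and 0.04 for G2/M genes. There 26 of 38 genes were higher in the KO embryo, beside 49.7% of all genes tested. KOAC9 holds a WT embryo alone, so no difference can be had within it.

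Further genes of the cell cycle were taken from published lists for the phases. Of 33 further S-phase genes, 29 had a higher mean in KO embryos (median log2 fold change 0.13), and 5 had an unadjusted p under 0.05 in limma, all higher in KO embryos, where 5.27% of all genes tested were higher at that level. Of 41 further G2/M genes, 39 were higher (median 0.13) and 10 had an unadjusted p under 0.05, again all higher. In both lists 0 had an adjusted p under 0.05. KOAC10-8 was the highest embryo for 27 genes of each list, and KOAC9-1 the lowest for 16 S-phase and 21 G2/M genes.

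Among the further S-phase genes, Nasp, a histone chaperone, was listed at 313, 436 and 369 FPKM in KO embryos and 310, 307, 301 and 296 FPKM in WT embryos. Every KO embryo was above every WT embryo, by little in KOAC10-5, and the log2 fold change was 0.28 (SE 0.11; limma adjusted p = 0.3999). Wdr76 had a log2 fold change of 0.27 (SE 0.10) and Clspn, an adaptor of the replication checkpoint, one of 0.26 (SE 0.11). Both overlapped between genotypes.

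Among the further G2/M genes, Cenpf, a kinetochore protein, had the largest difference at 33.4, 34.7 and 38.6 FPKM in KO embryos and 35.2, 21.5, 22.6 and 17.6 FPKM in WT embryos. The WT embryo KOAC10-2 stood with the KO embryos, and the log2 fold change was 0.58 (SE 0.21; limma adjusted p = 0.391). Gas2l3, a linker of actin and microtubules, had a log2 fold change of 0.48 (SE 0.16) at 4.26 to 7.66 FPKM in KO and 3.63 to 4.39 FPKM in WT embryos. Lbr, the lamin B receptor of the nuclear envelope, had one of 0.33 (SE 0.10) and did not overlap, at 45.3 to 53.3 FPKM in KO and 33.5 to 44.1 FPKM in WT embryos.

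Among the inhibitors of cyclin-dependent kinases, Cdkn1c had the largest difference and ran opposite to most cell cycle genes. Of the 7 listed, Cdkn2a and Cdkn2b were under a mean of 1 FPKM and not tested, and of the other 5, 1 had a higher mean in KO embryos (median log2 fold change -0.13), beside 53.1% of all genes tested. Cdkn1c, the imprinted inhibitor p57, was the most abundant at 516, 380 and 460 FPKM in KO embryos and 565, 560, 540 and 595 FPKM in WT embryos. No KO embryo reached the level of any WT embryo, a pattern held by 5.98% of all genes tested. The log2 fold change was -0.33 (SE 0.10; limma adjusted p = 0.353). KOAC10-8, which was high in most cell cycle genes, was the lowest embryo for Cdkn1c. Cdkn1a, p21, had a log2 fold change of -0.15 (SE 0.08) and Cdkn1b, p27, one of 0.06 (SE 0.06). Cdkn2c, p18, was at -0.13 (SE 0.10) and Cdkn2d, p19, at -0.0045 (SE 0.06), so that Cdkn1c alone had an unadjusted p under 0.05 in limma.

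Of the 11 pocket protein and other E2F genes, 9 had the higher mean in KO embryos (median 0.11). Tfdp2, a dimerization partner of E2F factors, had a log2 fold change of 0.19 (SE 0.06; limma adjusted p = 0.354), at 28.9, 31.9 and 30.2 FPKM in KO embryos and 26.0, 25.5, 28.7 and 25.8 FPKM in WT embryos. KOAC10-5 was only just above KOAC8-1. E2f2, named after its values were seen because it had the largest difference of the list in size and ran the other way, was at -0.19 (SE 0.08; limma adjusted p = 0.438), with 6.71, 7.12 and 8.102 FPKM in KO embryos and 8.65, 7.68, 8.69 and 8.86 FPKM in WT embryos. KOAC8-6 and KOAC10-7 overlapped.

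Markers of single tissues also varied between these whole embryos. The summed FPKM of 6 skeletal muscle genes were 28.5 to 55.0 in KO and 84.0 to 132 in WT embryos, and did not overlap. The 5 primitive erythroid genes summed to 11053 to 15225 FPKM in KO and 15127 to 20460 FPKM in WT embryos with a small overlap. The 6 neural progenitor genes summed to 645 to 719 FPKM in KO and 586 to 665 FPKM in WT embryos, a sum made up largely of Fabp7 (log2 fold change -0.02, SE 0.08). Their median log2 fold change was 0.46, above that of the cell cycle genes, with Pax6 at 0.50 (SE 0.11), Hes5 at 0.50 (SE 0.15), Sox2 at 0.48 (SE 0.13), Sox1 at 0.44 (SE 0.15) and Nes at 0.25 (SE 0.08). For Sox2, Pax6 and Nes all KO embryos were above all WT embryos, a pattern held by 5.61% of all genes tested. For Nes the margin was small, with 117.7 FPKM in KOAC10-5 and 117.5 FPKM in KOAC10-2. Sox1, Hes5 and Fabp7 overlapped between genotypes. KOAC10-8 was the highest embryo for Sox2, Pax6 and Nes. Neuronal genes summed to 556 to 665 FPKM in KO and 565 to 710 FPKM in WT embryos. The 6 fetal liver genes varied within both genotypes, from 9.96 to 482 FPKM in KO and from 4.59 to 720 FPKM in WT embryos. No marker was at 0 in any embryo, and 0 had an adjusted p under 0.05 in limma. The part of tissue make-up in the cell cycle values was not tested.

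Fragments of 8 of the 38 genes could be shared with other genes, since over 10% of their stretches of 50 bases also occur elsewhere in the annotated transcripts. Beside Pcna, Ccnb1 and Ccne2 these were Mcm7 (23.3%), Ccnd1 (21.6%, with the neighbour LTO1), Cdk4 (17.0%, with Tspan31), Ccna2 (11.4%, with Exosc9) and Plk1 (10.4%). The other 30 genes shared at most 6.31%, and Aurka and Bub1 were among the 9 that shared none.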

How the data were processed

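RNA of 7 whole embryos (3 KO, 4 WT) was sequenced from TruSeq RNA v2 libraries, and genotypes were taken from the labels. The authors deposited FPKM for each gene in each embryo, and their processing notes name Salmon, DESeq2, MultiQC and the build GRCm38. The authors also deposited a mean signal per gene (normalized counts over the embryos), used for precision only, and the results of a KO against WT comparison (fold changes, errors, p-values), which were not used. FPKM columns without an embryo numbered 0. Genes averaging 1 FPKM or more were tested as log2(FPKM + 1), which understates changes of low genes, with limma 3.58.1 (moderated test with an intensity trend) in R 4.3.3, all 7 embryos, no covariate and Benjamini-Hochberg adjustment over 16095 genes (threshold 0.05). The fit was tested on simulated data. Single values had exact permutation tests over 35 splits.

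The members and lists were chosen with earlier results of these data known. Values in every embryo are given for genes with an unadjusted p under 0.05, for genes whose genotypes did not overlap, for the most and least abundant of each role, for Mki67, Top2a, Pcna, Ccnb1, Ccnd1 and E2f1, and, in part as ranges, for up to 3 genes of each further list with an unadjusted p under 0.05, by size of change. The remaining tested inhibitor genes and E2f2 were added after their values were seen. Relative depth was read from the steps between low FPKM values. Each embryo is taken as a separate animal, and which litters they came from is not given in the sources used here. Alternatives were other pseudocounts (0.1 and 0.01), filters (none, 5 FPKM), scalings, covariates and variance models, and leaving out embryos. Positions follow GRCm38 and GENCODE M21.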

Additional observations from a re-analysis of the deposited data

Results flagged for a closer look

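For 3 of the 38 cell cycle genes, 1 WT embryo stood far from the other 3, where chance flags about 1 in 20 groups, or 1.9 of 38. For Top2a the gap between KOAC9-1 (197 FPKM) and the nearest WT embryo was 0.846 of the whole WT range, with the other WT embryos at 238 to 246 FPKM. For Pcna the gap between KOAC10-2 (242 FPKM) and the nearest of the rest was 0.887 of the range, and KOAC10-2 was the WT embryo with Pcna-ps2 listed at 0 FPKM. For Birc5 it was 0.917 of the range, with KOAC8-1 at 124 FPKM and the others at 116 to 117 FPKM.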

How the results depend on the processing

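Of the 38 cell cycle genes, 0 had an adjusted p under 0.05 in limma under any alternative, and their lowest adjusted p ran from 0.193 (without KOAC10-5) to 0.8498 (without KOAC10-8 and KOAC9-1, chosen after the values were seen). The count at an unadjusted p under 0.05, 3 as reported, was 1 with the series of the embryo name as a block, 0 without KOAC10-8 and KOAC9-1, and 0 to 13 with 1 embryo left out. Over all genes tested the count with an adjusted p under 0.05, 6 as reported, was 10 with Afp as a covariate, 10 without KOAC10-8 and KOAC9-1, and 7 to 12 with 1 embryo left out. The medians of the S-phase and G2/M genes and their difference moved by less than the pooled SD of single embryos under each alternative. These limits were wide, at 0.098, 0.084 and 0.053 beside reported values of 0.10, 0.15 and -0.04. A fall of the S-phase median to 0.02 therefore stayed within its limit. With 1 embryo left out, the S-phase median ran from 0.02 (without KOAC10-8) to 0.15 (without KOAC10-5). The G2/M median ran from 0.11 to 0.20 for the same omissions. Without both KOAC10-8 and KOAC9-1 the medians were 0.02 and 0.07. The cause of these shifts was not tested.

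Of 646 comparisons of a member under an alternative, 614 kept their sign, and 26 of the 38 genes kept it under all 17 alternatives. With KOAC10-8 and KOAC9-1 both left out, 9 turned by little, to -0.0046 (Mcm4), -0.022 (Mcm5), -0.015 (Mcm7), -0.0098 (Cdc6), -0.016 (Ccne2), -0.018 (Ccnb2), -0.011 (Cdk4), -0.0016 (Cenpa) and -0.019 (Tyms), while Birc5 turned to -0.10. Birc5, at 0.00 as reported, was also at -0.0063 with median-ratio scaling, -0.021 with quantile normalization, -0.0081 with the series block and -0.021 with Afp as a covariate. Ccne2 was at -0.020 with the series block, Cdc6 at -0.016 with Afp, and Cdk2 at -0.00071 with quantile normalization and -0.0021 with Afp. With 1 embryo left out, the log2 fold change ran from -0.012 to 0.15 for Mcm4, -0.018 to 0.088 for Mcm7, -0.026 to 0.14 for Cdc6, -0.020 to 0.19 for Ccne2, -0.030 to 0.058 for Cdk2, -0.032 to 0.21 for Cdk6, -0.092 to 0.066 for Birc5 and -0.013 to 0.097 for Tyms.

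The genotypes share no replicate numbers, only the series part of the embryo names. With that series as a block, the median of the 38 genes was 0.09 with 33 higher in KO embryos. Depth left little counting error in these abundant genes, whereas 3 against 4 embryos holds every exact test to p = 0.0286 or more.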
